A study of Homo sapiens with 20 samples.

Results

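Romidepsin and panobinostat were compared after 20 h at the same concentration, 10 nM, in OPM2 cells, an established human multiple myeloma line. The comparison rests on 4 of the 20 poly(A) RNA-seq libraries of the study, 2 of cells given romidepsin for 20 h and 2 of cells given panobinostat for 20 h, and on every gene expressed in them. Of 78932 gene identifiers, 20957 passed the filter on low counts and were tested, and 10932 of these reached a mean of 5 CPM with at least 1 of the compounds; CPM are counts scaled to a common library total. The same compounds and dose at 2 h and 5 h, with 2 libraries per group, were used to see when the differences arose. The 2 DMSO libraries, whose harvest time the labels do not give, gave the level without an inhibitor. The remaining libraries were of cells given another inhibitor, ricolinostat (100 nM in the sample titles), for 2, 5 or 20 h. They entered the filter on low counts, the scaling, the shared fit and the principal components. Their own levels are not compared here. The labels call the libraries of a group independent biological replicates, and all came from the same line, so the spread is that between cultures of OPM2.

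Histone deacetylases (HDACs) remove acetyl groups from lysines of histones and of other proteins. HDAC1, HDAC2, HDAC3 and HDAC8 form class I and, apart from HDAC8, work inside corepressor complexes. Panobinostat is a hydroxamic acid that inhibits HDACs of several classes, HDAC6 among them. Romidepsin is a cyclic depsipeptide prodrug whose reduced thiol binds the active-site zinc, and it acts mainly on class I enzymes. Both have been used in blood cancers. Myeloma cells are malignant plasma cells that depend on the transcription factors IRF4, PRDM1, IKZF1 and IKZF3. OPM2 carries the translocation that places NSD2 and FGFR3 under immunoglobulin enhancers. The labels give neither acetylation nor viability, so the doses are matched in concentration only.

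Promoter sequences of 5 genes named below are shown first. They hold response elements of 3 gene groups with members that differed between the compounds. Each is the RefSeq window from 250 bases before to 50 bases after the gene's start, on GRCh38.p14, written 5′ to 3′ on the gene's strand. Capitals mark matches to the interferon-stimulated response element (ISRE, GAAA, any 2 bases, then GAAA) in IFIT3 and SAMD9, to the metal response element (MRE, TGCACNC or TGCGCNC) in MT2A, and to the E-box CACGTG in RRP9 and PNO1, each searched on both strands. Where matches touch or overlap, 1 run of capitals holds several.
IFIT3, chr10:89327747-89328046, plus strand: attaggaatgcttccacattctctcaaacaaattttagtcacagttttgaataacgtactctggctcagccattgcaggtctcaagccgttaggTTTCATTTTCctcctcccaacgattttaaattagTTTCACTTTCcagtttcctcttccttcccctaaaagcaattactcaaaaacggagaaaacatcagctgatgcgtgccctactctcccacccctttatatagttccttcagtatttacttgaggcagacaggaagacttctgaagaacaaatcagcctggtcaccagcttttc
SAMD9, chr7:93117930-93118229, minus strand: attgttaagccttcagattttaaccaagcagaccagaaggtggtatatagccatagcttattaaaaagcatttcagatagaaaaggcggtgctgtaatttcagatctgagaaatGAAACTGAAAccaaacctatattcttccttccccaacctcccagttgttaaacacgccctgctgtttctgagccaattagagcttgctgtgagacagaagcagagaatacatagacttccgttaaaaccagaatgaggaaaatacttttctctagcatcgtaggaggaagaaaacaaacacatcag
MT2A, chr16:56608334-56608633, plus strand: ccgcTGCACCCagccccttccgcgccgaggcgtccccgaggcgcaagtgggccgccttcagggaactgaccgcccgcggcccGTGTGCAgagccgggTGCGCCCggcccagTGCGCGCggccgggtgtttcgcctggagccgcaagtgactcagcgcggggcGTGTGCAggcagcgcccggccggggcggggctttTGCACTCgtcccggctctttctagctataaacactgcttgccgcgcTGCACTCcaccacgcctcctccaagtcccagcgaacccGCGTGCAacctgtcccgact
RRP9, chr3:51941855-51942154, minus strand: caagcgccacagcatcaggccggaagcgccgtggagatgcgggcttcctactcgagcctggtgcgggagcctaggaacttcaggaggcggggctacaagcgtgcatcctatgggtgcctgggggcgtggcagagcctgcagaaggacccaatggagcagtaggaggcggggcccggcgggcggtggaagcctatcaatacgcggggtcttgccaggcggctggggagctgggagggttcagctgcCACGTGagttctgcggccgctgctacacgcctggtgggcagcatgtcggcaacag
PNO1, chr2:68157638-68157937, plus strand: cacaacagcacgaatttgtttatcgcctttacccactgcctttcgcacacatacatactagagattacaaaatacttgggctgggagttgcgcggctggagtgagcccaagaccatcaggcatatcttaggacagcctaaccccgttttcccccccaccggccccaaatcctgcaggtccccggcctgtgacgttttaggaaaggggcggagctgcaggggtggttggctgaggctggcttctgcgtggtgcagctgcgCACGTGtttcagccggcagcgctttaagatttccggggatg
The MT2A window held 8 matches and the IFIT3 window 2. A match describes these letters and is not evidence that a factor binds there.

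Total counts were 21565289 and 24480807 with romidepsin, 21983409 and 29088868 with panobinostat, and 25313510 and 28656570 with DMSO. Mitochondrially encoded RNA took 5.48% and 5.36% of counts with romidepsin, 6.60% and 6.08% with panobinostat, and 4.69% and 4.41% with DMSO. The first principal component of all 20 libraries held 63.1% of the variance and placed romidepsin at 20 h at 149.7 and 150.1, panobinostat at 20 h at 196.6 and 194.9, and DMSO at -76.6 and -75.9. Markers of T and NK, erythroid and epithelial cells summed to at most 2.00 CPM in any of these 6 libraries. Myeloid markers summed to 3.39 and 2.98 CPM with romidepsin, 8.92 and 8.87 with panobinostat, and 0.514 and 0.698 with DMSO. With the compounds most of it was CSF1R and CD14. CSF1R had 42 and 31 counts with romidepsin, 126 and 179 with panobinostat, and 2 and 0 with DMSO. CD14 had 14 and 20, 45 and 43, and 1 and 7 in the same order. LYZ and ITGAM also had counts, while S100A8, S100A9 and MPO had 0 counts in the 4 treated libraries. Stromal markers summed to 29.7 and 32.2 CPM with romidepsin, 43.2 and 40.4 with panobinostat, and 0 and 0.0698 with DMSO, nearly all of it COL1A1 and DCN. Their part in the results was not tested. The plasma cell genes SDC1, IRF4 and NSD2 were abundant in DMSO, at 1111 and 1126 CPM, 1767 and 1736 CPM and 2492 and 2519 CPM.

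The transcriptomes differed widely at 20 h, by small steps for most genes. Relative to panobinostat, 4907 genes were higher with romidepsin (23.4% of those tested) and 3835 were lower (18.3%) at an adjusted p under 0.05 (edgeR's quasi-likelihood test with Benjamini-Hochberg adjustment). Errors written with ± are standard errors of log2 fold changes from that test unless named otherwise. A difference of at least 2-fold was reached by 1362 higher genes (6.50%) and 900 lower genes (4.29%). The libraries of both groups did not overlap for 70.9% of the genes tested. Among the 10932 genes at 5 CPM or more, to which most members of the gene lists below belong, 37.5% were higher and 29.3% lower. The 95% interval of the difference lay within 1.5-fold either way for 6222 of them (56.9%), 3089 of which still passed the test. It lay wholly beyond 1.5-fold for 1806 (16.5%). The median log2 fold change of all genes tested was 0.00.

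**Figure D1:**
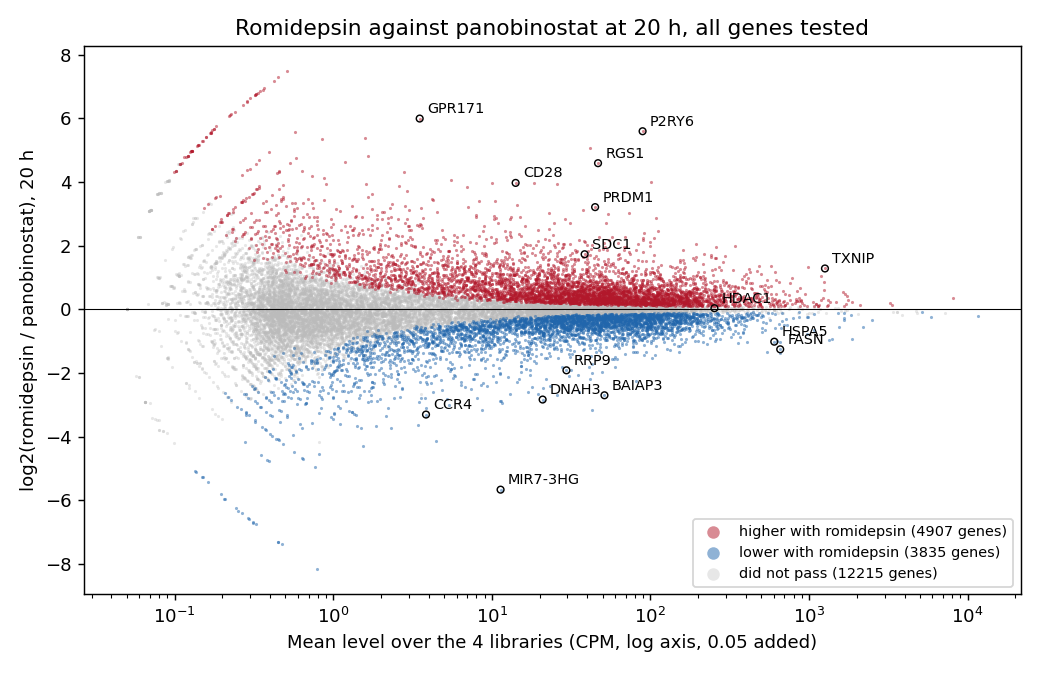
Log2 fold change of romidepsin over panobinostat at 20 h (y axis) against the mean level over the 4 libraries in CPM (x axis, log scale, 0.05 added), 1 point per gene tested. The 4907 higher genes and the 3835 lower genes spread over all levels, and circled genes are named in the text.

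Among protein-coding genes at 5 CPM or more, those with the largest positive differences included several that were near 0 with panobinostat and not with romidepsin. GPR171, which encodes a G protein-coupled receptor, had 7.05 and 6.60 CPM with romidepsin, against 0.0783 and 0.120 CPM with panobinostat and 9.61 and 9.84 CPM with DMSO (log2 fold change 5.99 ± 0.33, adjusted p = 1.2e-31). Only the panobinostat libraries were near 0. P2RY6, a receptor for the nucleotide UDP (chromosome 11, 73264505 to 73298617, plus strand, GENCODE 29 on GRCh38), had 178 and 171 CPM with romidepsin, against 3.09 and 4.03 CPM with panobinostat and 119.8 and 118 CPM with DMSO. Romidepsin libraries were above the DMSO libraries and panobinostat libraries far below them, a 48.3-fold difference between the compounds (log2 fold change 5.59 ± 0.08, adjusted p = 3.3e-79). RGS1, which shortens G protein signalling in lymphocytes (chromosome 1, 192575727 to 192580031, plus strand), had 84.8 and 94.5 CPM with romidepsin, against 4.42 and 3.13 CPM with panobinostat and 4.49 and 5.33 CPM with DMSO. It stood well above DMSO with romidepsin and close to DMSO with panobinostat, a log2 fold change of 4.59 ± 0.13 between the compounds. MACROD2, an ADP-ribose hydrolase gene with a very long span (chromosome 20, 13995369 to 16053197, plus strand), had 185 and 197 CPM with romidepsin, against 11.5 and 12.4 CPM with panobinostat and 210.0 and 204 CPM with DMSO (log2 fold change 4.0 ± 0.06, adjusted p = 4.2e-79).

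CD28, a costimulatory receptor that myeloma cells can carry, had 25.6 and 27.4 CPM with romidepsin, against 1.88 and 1.53 CPM with panobinostat and 218 and 218 CPM with DMSO. Both compounds left it below DMSO, and panobinostat further, with a log2 fold change between the compounds of 3.97 ± 0.11. The chemokine gene CCL3 had 10.8 and 15.3 CPM with romidepsin and 0.900 and 0.902 CPM with panobinostat (log2 fold change 3.85 ± 0.21). The same direction held for ARHGEF17 (3.96), the membrane mucin MUC13 (3.93), TMEM255A (3.71), the secreted CTHRC1 (3.40) and PRDM1 (3.21), all among the 12 protein-coding genes with the largest positive differences. Among long noncoding RNAs FAM30A (chromosome 14, 105917979 to 105932642, plus strand), which lies at the immunoglobulin heavy chain locus, had 79.5 and 81.2 CPM with romidepsin, against 2.78 and 2.07 CPM with panobinostat and 620.1 and 618 CPM with DMSO (log2 fold change 5.07 ± 0.08, adjusted p = 2.6e-78). CERNA2 and SILC1 followed with log2 fold changes of 4.07 and 3.96.

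The genes furthest below panobinostat, again at 5 CPM or more, included many that were close to silent in DMSO. MIR7-3HG, the host transcript of a miR-7 gene (chromosome 19, 4769140 to 4772533, plus strand), had 0.338 and 0.519 CPM with romidepsin, against 23.4 and 21 CPM with panobinostat and 0 and 0 CPM with DMSO (log2 fold change -5.66 ± 0.32, adjusted p = 9.5e-30), and the mature miRNA is not measured in poly(A) libraries. DNAH3, an axonemal dynein heavy chain, had 5.36 and 4.93 CPM with romidepsin, against 35.5 and 37.8 CPM with panobinostat and 0.127 and 0.149 CPM with DMSO (log2 fold change -2.83 ± 0.18, adjusted p = 6.4e-27). BAIAP3, which acts in dense-core vesicle traffic, had 14.6 and 12.8 CPM with romidepsin, against 94.2 and 83.6 CPM with panobinostat and 0.296 and 0.224 CPM with DMSO (log2 fold change -2.70 ± 0.11, adjusted p = 1.4e-40). RPL3L, the muscle form of a ribosomal protein, had 10.5 and 9.83 CPM with romidepsin, against 60.9 and 61.4 CPM with panobinostat and 0.0847 and 0 CPM with DMSO. NRARP, a feedback inhibitor of Notch signalling, had 3.55 and 3.56 CPM with romidepsin, against 23.7 and 21 CPM with panobinostat and 1.74 and 1.60 CPM with DMSO. In each of these genes both compounds stood above DMSO, and panobinostat by far the most. The chemokine receptor gene CCR4 showed the largest difference in this direction among protein-coding genes at 5 CPM or more, with 0.844 and 0.556 CPM with romidepsin and 6.61 and 7.19 CPM with panobinostat, and 0 counts in DMSO (log2 fold change -3.30 ± 0.42). CEACAM20 (-2.44) and NCKAP5L (-2.39) also had 0 counts in both DMSO libraries. Others among the 12 largest were CRISPLD2 (-2.87), SLC22A31 (-2.49), IZUMO4 (-2.47) and the granulocyte growth factor gene CSF3 (-2.36). CRISPLD2 did not pass with DESeq2, at an adjusted p of 0.094.

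**Figure D2:**
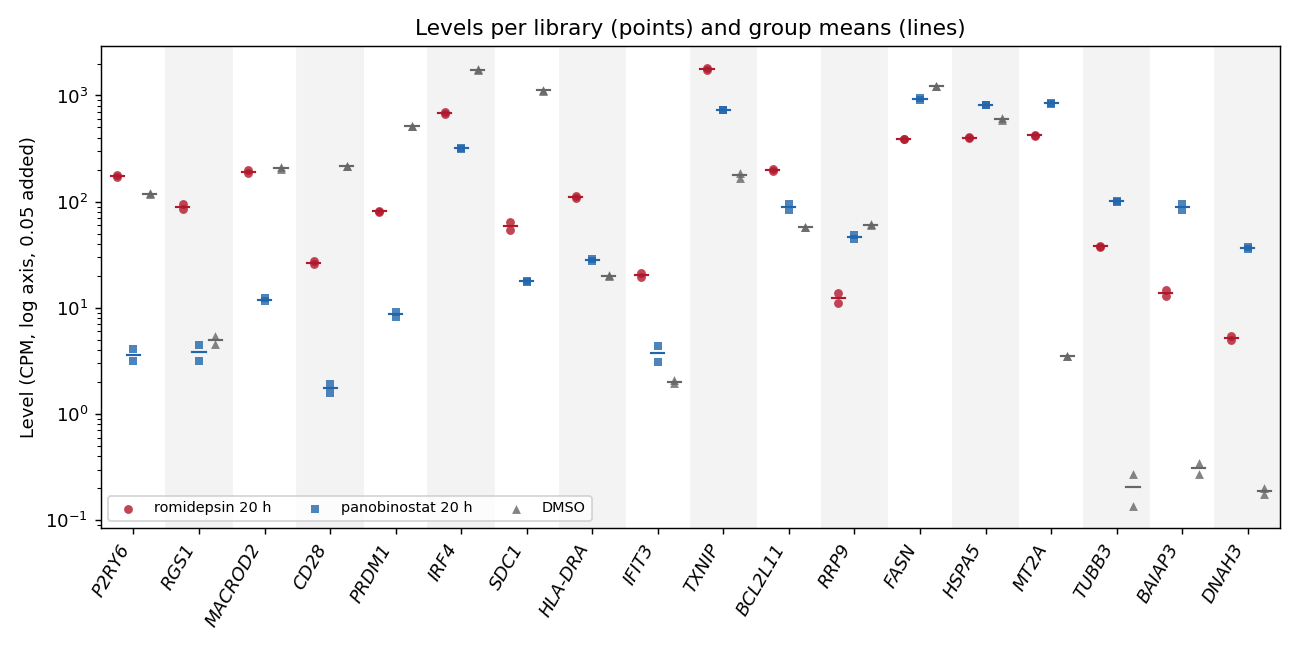
Level per library in CPM (y axis, log scale, 0.05 added) of 18 genes (x axis), with romidepsin at 20 h (red circles), panobinostat at 20 h (blue squares) and DMSO (grey triangles); points are libraries and lines are group means. For the 11 genes on the left romidepsin lies above panobinostat, for the 7 on the right below it, and replicates lie close together.

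The differences were also set against the level in DMSO, which took no part in the contrast. Of 6349 genes at 0.5 CPM or less in DMSO, 219 were at least 2-fold higher with romidepsin and 541 at least 2-fold lower, with a median log2 fold change of -0.23 over all of them. Genes near 0 in DMSO could pass the filter on low counts only through treated groups in which they were higher, so these counts are a description. Of 4752 genes above 0.5 and up to 5 CPM, 395 were at least 2-fold higher and 238 lower (median -0.02). Of 5102 genes above 5 and up to 50 CPM, 378 were at least 2-fold higher and 80 lower (median 0.05). Of 4442 genes above 50 and up to 500 CPM, 329 were at least 2-fold higher and 38 lower (median 0.12). Of 312 genes above 500 CPM in DMSO, 41 were at least 2-fold higher and 3 lower (median 0.24).

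The plasma cell and myeloma genes had the highest median of the 46 pathway lists, with 25 of 29 tested members higher and 3 lower (median log2 fold change 1.73). Of all genes tested 23.4% were higher, with a median of 0.00, and of those at 5 CPM or more 37.5% were higher. PRDM1, the repressor that drives plasma cell differentiation, had 79.6 and 82.1 CPM with romidepsin, against 8.22 and 9.14 CPM with panobinostat and 516 and 514 CPM with DMSO (log2 fold change 3.21 ± 0.06, adjusted p = 1.8e-67). IRF4, on which myeloma cells depend, had 668 and 695 CPM with romidepsin, against 316 and 320.3 CPM with panobinostat and 1767 and 1736 CPM with DMSO (1.10 ± 0.04). IKZF1 and IKZF3, the lymphoid zinc-finger factors degraded under thalidomide analogues, differed by 1.97 and 2.01 on the log2 scale. POU2AF1, a B cell coactivator, had 17.9 and 18.7 CPM with romidepsin and 2.54 and 2.25 CPM with panobinostat, against 384 and 368 CPM with DMSO. MYC, the growth-driving factor, had 24.6 and 23.5 CPM with romidepsin, against 8.80 and 10.3 CPM with panobinostat and 448 and 432 CPM with DMSO (1.32 ± 0.08). XBP1, the secretory-cell factor, had 148 and 149 CPM with romidepsin, against 70.3 and 73.4 CPM with panobinostat and 910.2 and 928 CPM with DMSO (1.05 ± 0.04). For each of these factors both compounds left the level below DMSO and romidepsin less so.

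The genes for surface proteins of plasma cells showed the same order. SDC1 (CD138) had 63.9 and 54.3 CPM with romidepsin, against 18 and 17.6 CPM with panobinostat and 1111 and 1126 CPM with DMSO (log2 fold change 1.73 ± 0.06, adjusted p = 8.6e-48). TNFRSF17, which encodes BCMA, had 6.50 and 5.86 CPM with romidepsin, against 0.861 and 1.17 CPM with panobinostat and 301 and 301 CPM with DMSO (2.57 ± 0.17). CD38 stood above DMSO with romidepsin and below it with panobinostat, with 17.8 and 17 CPM with romidepsin, against 4.03 and 3.58 CPM with panobinostat and 11.6 and 11.2 CPM with DMSO (2.20 ± 0.15). NSD2, a histone H3 lysine 36 methyltransferase, and FGFR3, a growth factor receptor, both on the translocated chromosome 4 region, differed by 0.87 and 0.31. FGFR3 had 319.9 and 323 CPM with romidepsin, against 255 and 263 CPM with panobinostat and 3519 and 3551 CPM with DMSO, so that both compounds left it far below DMSO and close to each other. The median log2 fold change of the list against DMSO was -2.20 with romidepsin and -3.17 with panobinostat, and the same DMSO libraries serve both. DERL3, BHLHA15 and CRBN were the members lower with romidepsin. Without romidepsin replicate 2, or without panobinostat replicate 1, 1 member was lower. Immunoglobulin genes took 0.0389% and 0.0372% of counts with romidepsin, 0.00735% and 0.00780% with panobinostat, and 0.450% and 0.446% with DMSO. Of the B cell program list, 14 of 23 symbols passed the filter and 3 were higher, among them BCL11A (1.45) and BACH2 (1.10); PAX5 and CD40, at low levels, were lower, but at most 1 was when any library was left out. TCF3, a B-lineage factor, differed by -0.06 (95% interval -0.14 to 0.02).

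Most antigen presentation genes tested were higher with romidepsin. For comparison, 23.4% of all genes tested were higher and 37.5% of those at 5 CPM or more. The MHC class I list had 17 of 21 tested members higher and 1 lower (median log2 fold change 0.90). ERAP1 and ERAP2, which trim peptides in the endoplasmic reticulum, differed by 1.64 and 2.33, and TAP1, a subunit of the peptide transporter, had 64.8 and 62.2 CPM with romidepsin, against 23 and 25.1 CPM with panobinostat and 113 and 114 CPM with DMSO (1.39 ± 0.06). PSMB8, an immunoproteasome subunit, had 30.6 and 27.6 CPM with romidepsin, against 11 and 11.2 CPM with panobinostat and 82.4 and 82 CPM with DMSO. TAPBPL, a tapasin-related editor, differed by 0.00 (95% interval -0.20 to 0.21). The MHC class II list had 10 of 16 tested members higher and 0 lower (median log2 fold change 0.89), with 6 higher when romidepsin replicate 2 was left out. Several class II genes, HLA-DQA1 and HLA-DMB among them, were near 0 in DMSO. Such members could pass the filter on low counts only through treated groups in which they were higher. The class II count and median are therefore a description. CIITA, the coactivator that switches on class II genes, had 40.0 and 37.9 CPM with romidepsin, against 13.9 and 10.5 CPM with panobinostat and 12.3 and 11.6 CPM with DMSO (log2 fold change 1.69 ± 0.10, adjusted p = 1e-27). HLA-DRA had 114 and 108 CPM with romidepsin, against 29 and 27.8 CPM with panobinostat and 20.1 and 19.9 CPM with DMSO (log2 fold change 1.97 ± 0.08, adjusted p = 5.5e-42), and RFXAP, a subunit of the promoter-bound RFX complex, differed by 0.09 (95% interval -0.22 to 0.40). At 5 h the class II median was -0.03 and CIITA differed by -0.05, and the change in CIITA between 5 h and 20 h was 1.74 ± 0.14 (adjusted p = 1.8e-19). HLA genes share near-identical sequence, and how shared reads were counted is not given in the sources used here.

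Interferon-stimulated genes had 13 of 31 tested members higher and 3 lower (median log2 fold change 0.40), 1 lower without romidepsin replicate 1 or without panobinostat replicate 2. The share higher was close to that of all genes at 5 CPM or more (37.5%), and of all genes tested 23.4% were higher. Members near 0 in DMSO, MX1 and HERC6 among them, could pass the filter on low counts only through treated groups in which they were higher. The counts of this list are therefore a description. IFIT3, an antiviral RNA-binding protein, had 21.2 and 19.6 CPM with romidepsin, against 3.05 and 4.30 CPM with panobinostat and 2.03 and 1.90 CPM with DMSO (log2 fold change 2.46 ± 0.20, adjusted p = 5e-20). SAMD9, which restricts translation in infected cells, had 139 and 141 CPM with romidepsin, against 37.5 and 41.9 CPM with panobinostat and 38.2 and 38 CPM with DMSO (1.81 ± 0.06). Its neighbour and relative SAMD9L had 21.7 and 24.2 CPM with romidepsin, against 3.05 and 3.34 CPM with panobinostat and 42.5 and 44.9 CPM with DMSO (2.84 ± 0.11). IFIT3 and SAMD9 were above DMSO with romidepsin and nearer to DMSO with panobinostat, while SAMD9L was below DMSO with both. OAS1, which makes 2′-5′ oligoadenylates, had 10.0 and 9.90 CPM with romidepsin and 2.62 and 2.92 CPM with panobinostat (1.84 ± 0.25). GBP2 differed by -0.05 (95% interval -0.57 to 0.47). Of the 23 tested members with a promoter window, 14 (60.9%) held the ISRE letters, against 3.65% of 27305 RefSeq windows. Of those 14, 5 were higher and 1 lower with romidepsin, and of the 9 without the letters 5 were higher and 0 lower.

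Each list of immediate-early, NF-kB, cytokine, adhesion and natural killer ligand genes had a median above 0. The immediate-early list had 21 of 34 tested members higher and 6 lower (median log2 fold change 0.47). DUSP4, a phosphatase of the ERK pathway, had 91.3 and 89.5 CPM with romidepsin, against 20.1 and 19.8 CPM with panobinostat and 149 and 141 CPM with DMSO. Its relative DUSP5 had 292 and 297 CPM with romidepsin, against 92.5 and 96 CPM with panobinostat and 248 and 250.4 CPM with DMSO. FOSL2, an AP-1 subunit, had 146 and 148 CPM with romidepsin, against 31.2 and 34.2 CPM with panobinostat and 13.4 and 12.2 CPM with DMSO (2.17 ± 0.09), and SPRY2, an inhibitor of receptor signalling, differed by 1.82. JUNB differed by 0.02 (95% interval -0.07 to 0.12). The NF-kB list had 9 of 16 tested members higher and 4 lower (median log2 fold change 0.50), led after CCL3 by BCL3 (2.38), NFKBIZ (1.85) and NFKB1 (1.56), while NFKBIE differed by -0.06 (95% interval -0.31 to 0.20). Of the cytokine and receptor list only 16 of 33 symbols passed the filter, 9 of them higher and 1, the cytokine gene IL32 (-2.64, under 1 CPM in all 6 libraries), lower (median 0.94); without replicate 2 of either compound 0 were lower. CCR1, a receptor for CCL3, had 14.3 and 13.6 CPM with romidepsin, against 2.11 and 1.68 CPM with panobinostat and 301 and 287 CPM with DMSO (2.89 ± 0.12). IL6R and IL6ST, the receptor chains for the myeloma growth factor IL-6, differed by 1.76 and 0.96. The integrin and adhesion list had 12 of 20 tested members higher and 0 lower (median log2 fold change 0.61), of 25 symbols. ITGB7, an integrin beta chain, had 338 and 329.5 CPM with romidepsin, against 98.5 and 102 CPM with panobinostat and 706 and 704 CPM with DMSO, and ITGA4, the alpha chain that pairs with it, differed by 1.57. Ligands of natural killer receptors had 4 of 12 tested members higher, CD48 (2.51) and MICB (1.51) among them, and 1 lower, ULBP1 (-1.30). Their median was only 0.10. For comparison, 23.4% of all genes tested were higher and 37.5% of those at 5 CPM or more.

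Mitosis and DNA replication genes leaned in opposite directions, the replication genes only slightly. Of all genes tested 23.4% were higher and 18.3% lower, and of those at 5 CPM or more 37.5% and 29.3%. The mitosis list had 28 of 35 tested members higher and 0 lower (median log2 fold change 0.47). CENPF, a kinetochore protein, had 709 and 709.7 CPM with romidepsin, against 374 and 382 CPM with panobinostat and 798 and 814 CPM with DMSO (log2 fold change 0.91 ± 0.04, adjusted p = 6.4e-30), and TOP2A, the topoisomerase that unlinks chromosomes, 968 and 976 CPM with romidepsin, against 541 and 555 CPM with panobinostat and 857 and 880.1 CPM with DMSO. CDK1 and UBE2C, which drive entry into and exit from mitosis, differed by 0.84 and 0.81, whereas MAD2L1, of the spindle checkpoint, differed by 0.00 (95% interval -0.10 to 0.10). The DNA replication list pointed the other way in small steps, with 5 of 47 tested members higher and 26 lower (median log2 fold change -0.14). When any 1 library was left out, 19 to 22 members were lower. GINS4, of the replicative helicase, differed by -0.76, the clamp loader subunit RFC2 by -0.63 and the thymidylate synthase gene TYMS, the other way, by 0.93. The intervals of 39 of those 47 genes lay within 1.5-fold. Homologous recombination and Fanconi genes had 5 of 29 members higher, RAD51D (0.81) among them, and 12 lower, XRCC3 (-0.82) among them. Of the G1 cyclins and kinases 7 of 15 were higher and 3 lower, CCND3 (cyclin D3, -0.25), the transcription factor E2F1 (-0.41) and the phosphatase CDC25A (-0.59). CCND2 (cyclin D2) had 84.7 and 83.1 CPM with romidepsin, against 23 and 23.2 CPM with panobinostat and 579 and 566 CPM with DMSO, and its partner kinase CDK6 differed by 1.74. In bulk samples fewer cells in a phase and less RNA per cell cannot be told apart.

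CDK inhibitors and p53 targets had 16 of 27 tested members higher and 7 lower (median log2 fold change 0.38). Among all genes at 5 CPM or more 37.5% were higher and 29.3% lower, and among all tested 23.4% and 18.3%. CDKN1A (p21), a gene induced by HDAC inhibitors in many cell types, had 558 and 569.6 CPM with romidepsin, against 309.8 and 320.5 CPM with panobinostat and 55.6 and 54.1 CPM with DMSO (log2 fold change 0.84 ± 0.05, adjusted p = 5.8e-32). CDKN1B (p27) and CDKN2A differed by 1.45 and 1.95, and the antiproliferative BTG2 had 277 and 279 CPM with romidepsin, against 91.8 and 89.8 CPM with panobinostat and 109 and 113 CPM with DMSO. CDKN1C (p57) differed in the other direction, with 7.60 and 7.01 CPM with romidepsin, against 22.5 and 23.4 CPM with panobinostat and 0.169 and 0.149 CPM with DMSO (-1.65 ± 0.20).

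Ribosome biogenesis genes leaned to panobinostat, with 4 of 42 tested members higher and 34 lower (median log2 fold change -0.61). Without panobinostat replicate 1, 2 members were higher. Of all genes tested 18.3% were lower, and of those at 5 CPM or more, as these members were, 29.3%. RRP9, a component of the U3 small nucleolar RNP, had 13.9 and 11 CPM with romidepsin, against 44.2 and 48.9 CPM with panobinostat and 61.3 and 60.1 CPM with DMSO (log2 fold change -1.91 ± 0.08, adjusted p = 5.6e-41). LYAR, a nucleolar zinc-finger protein, had 18.2 and 17.8 CPM with romidepsin, against 64.5 and 62.4 CPM with panobinostat and 86.3 and 82.1 CPM with DMSO (log2 fold change -1.82 ± 0.07, adjusted p = 1.6e-44). UTP15 and PNO1, of the small-subunit processome and late 40S assembly, differed by -1.25 and -1.22. FBL, the fibrillarin methyltransferase, differed by 0.00 (95% interval -0.08 to 0.08), and the members higher with romidepsin were UBTF, an RNA polymerase I factor, WDR12, NOP10 and WDR75. The list's median log2 fold change against DMSO was -1.77 with romidepsin and -1.04 with panobinostat. MYC activates this group in many cells. Its mRNA, as given above, was higher with romidepsin than with panobinostat and below DMSO with both. The part of MYC in this group was not tested. Of 36 members with a promoter window 14 (38.9%) held CACGTG, against 7.43% of all windows. Of those 14, 12 were lower and 1 higher with romidepsin, and of the 22 without the letters 17 were lower and 3 higher. Cytosolic ribosomal proteins differed slightly in the other direction, with 23 of 32 tested members higher and 1 lower (median log2 fold change 0.14) and every interval within 1.5-fold. Without romidepsin replicate 1, 15 were higher. RPL37, of the large subunit, had 979.8 and 961 CPM with romidepsin, against 745 and 782 CPM with panobinostat and 985 and 969 CPM with DMSO.

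Sterol and fatty acid synthesis genes were also lower, with 4 of 31 tested members higher and 20 lower (median log2 fold change -0.52). Among all genes at 5 CPM or more 37.5% were higher and 29.3% lower, and among all tested 23.4% and 18.3%. FASN, the fatty acid synthase, had 385 and 393 CPM with romidepsin, against 941 and 914 CPM with panobinostat and 1229 and 1225 CPM with DMSO (log2 fold change -1.25 ± 0.04, adjusted p = 1.7e-51). NSDHL, an enzyme of late cholesterol synthesis, had 21.9 and 22 CPM with romidepsin, against 52 and 53.4 CPM with panobinostat and 39.4 and 37.6 CPM with DMSO. MVK, mevalonate kinase, had 25.4 and 26.3 CPM with romidepsin, against 53.9 and 58.3 CPM with panobinostat and 22.2 and 23.4 CPM with DMSO. FASN was nearer to DMSO with panobinostat, and NSDHL and MVK were above DMSO with panobinostat. ELOVL6, which lengthens fatty acids, differed in the other direction (1.58), and SC5D differed by -0.03 (95% interval -0.19 to 0.14). The sterol response element letters, ATCAC, any base, then CCAC, were found in 1 of 25 member windows and in 0.154% of all windows. Glucose genes were mixed, with 12 of 29 higher and 10 lower. TXNIP, a brake on glucose uptake, had 1819.8 and 1755 CPM with romidepsin, against 731 and 737 CPM with panobinostat and 186 and 168 CPM with DMSO (log2 fold change 1.28 ± 0.04, adjusted p = 2.5e-52) and its relative ARRDC4 differed by 0.79, while the lactate exporter SLC16A3 differed by -1.73 and pyruvate kinase PKM by -0.02 (95% interval -0.09 to 0.05).

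**Figure D3:**
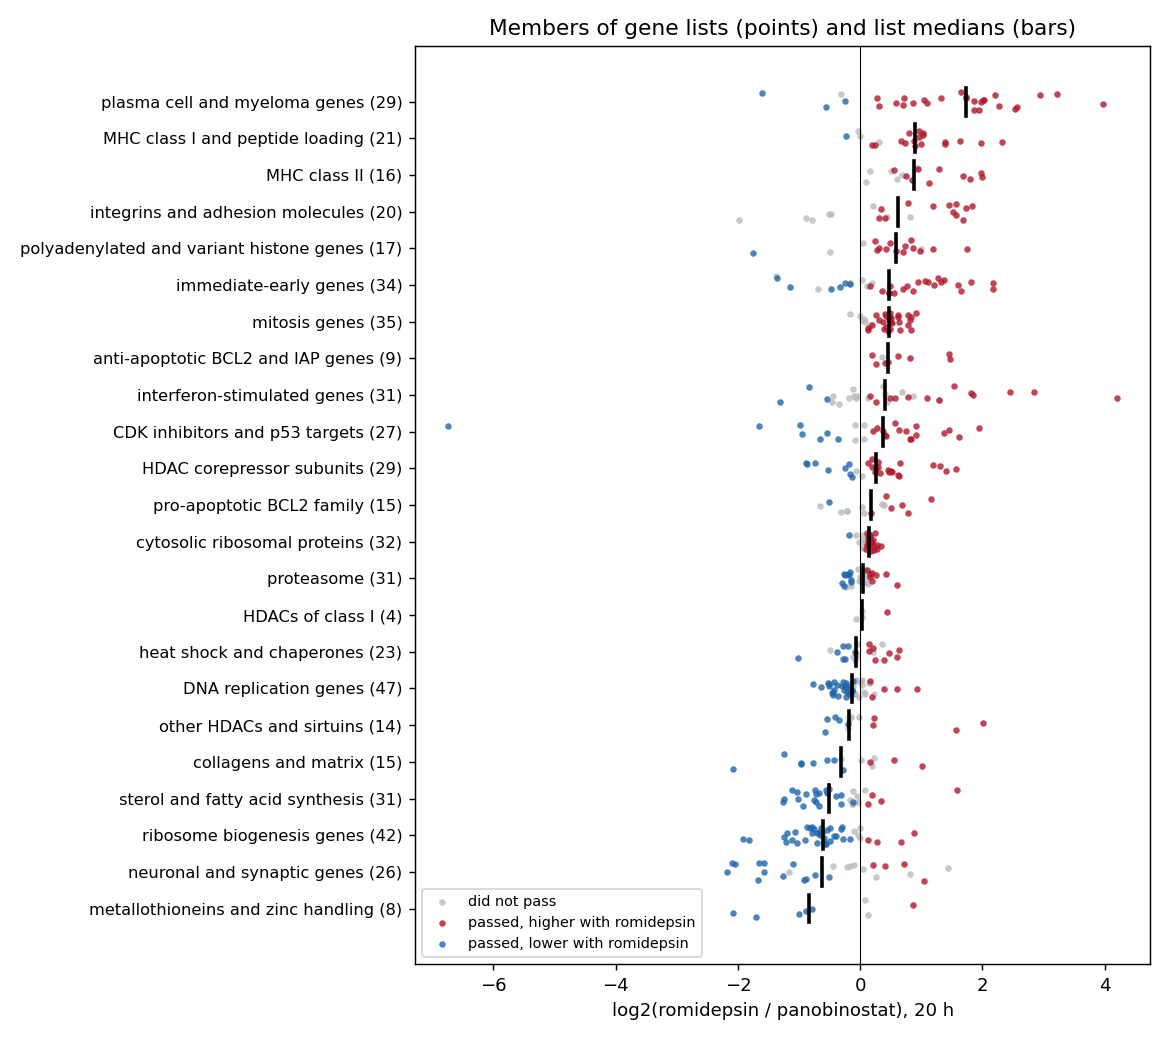
Log2 fold change of romidepsin over panobinostat at 20 h (x axis) of the tested members (points) of 23 gene lists (rows, number of members in parentheses), with list medians as black bars and lists in order of the median. Plasma cell and MHC genes lie highest, and ribosome biogenesis, neuronal and metallothionein genes lowest.

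Each stress list held members higher and members lower with romidepsin, and so did all genes. Of those at 5 CPM or more 37.5% were higher and 29.3% lower, and of all genes tested 23.4% and 18.3%. HSPA5 (BiP), the chief chaperone of the endoplasmic reticulum, had 396 and 404 CPM with romidepsin, against 806 and 810.2 CPM with panobinostat and 611 and 593 CPM with DMSO (log2 fold change -1.01 ± 0.04, adjusted p = 7.5e-44). HYOU1 and CRELD2, which work beside it, differed by -0.63 and -0.86, while the stress sensor EIF2AK3 (PERK) was higher (1.07) and ATF6 differed by 0.01 (95% interval -0.08 to 0.10). The list as a whole had 9 of 27 members higher and 9 lower. Of the heat shock list 8 of 23 were higher and 7 lower, but 4 were higher without romidepsin replicate 1, and 11 were lower with scaling to library size alone or a minimum count of 30. DNAJB1, a cochaperone of cytosolic HSP70, had 442 and 424 CPM with romidepsin, against 871 and 889 CPM with panobinostat and 96.3 and 94 CPM with DMSO (log2 fold change -1.02 ± 0.04, adjusted p = 3e-42) and HSP90AB1, a cytosolic HSP90, differed by -0.06 (95% interval -0.12 to 0.01). In the integrated stress response list, with 10 of 25 higher and 5 lower, DDIT4 (REDD1), an inhibitor of mTORC1, had 847 and 816 CPM with romidepsin, against 323 and 328 CPM with panobinostat and 169 and 153 CPM with DMSO (log2 fold change 1.35 ± 0.04, adjusted p = 1.1e-46), whereas the amino acid transporter SLC7A5 had 91.9 and 79 CPM with romidepsin, against 216 and 217 CPM with panobinostat and 993 and 986 CPM with DMSO (log2 fold change -1.35 ± 0.04, adjusted p = 4.9e-45). Of 31 proteasome subunits 29 had intervals within 1.5-fold, PSMD3 among them at 0.00 (95% interval -0.08 to 0.09). Autophagy and lysosome genes had 12 of 31 in each direction. The lysosomal sialidase NEU1 had 726 and 711 CPM with romidepsin, against 1217 and 1215 CPM with panobinostat and 74.2 and 76.9 CPM with DMSO (-0.76 ± 0.04), and GABARAPL1, of the autophagosome membrane, differed by 0.92.

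Anti-apoptotic genes were mostly higher with romidepsin, and pro-apoptotic genes were higher at a share close to that of all genes at 5 CPM or more (37.5%). Of 9 anti-apoptotic genes tested 8 were higher and 0 lower (median 0.46), of 11 symbols. BCL2 had 12.8 and 15.1 CPM with romidepsin, against 4.77 and 5.44 CPM with panobinostat and 95.9 and 101 CPM with DMSO (1.45 ± 0.11), and CFLAR, an inhibitor of caspase-8, differed by 1.48. MCL1, the BCL2 relative most used by myeloma cells, had 777 and 773 CPM with romidepsin, against 662 and 688 CPM with panobinostat and 672 and 665 CPM with DMSO, a difference of 0.20 (95% interval 0.13 to 0.27). Of 15 pro-apoptotic genes 6 were higher and 1, BIK (-0.52), lower (median 0.18). Without romidepsin replicate 1, romidepsin replicate 2 or panobinostat replicate 1, 0 were lower. The pro-apoptotic BID, HRK, BOK, BNIP3 and BCL2L14 were under 5 CPM with both compounds and did not pass. BCL2L11 (BIM) had 194 and 203 CPM with romidepsin, against 83.6 and 94.7 CPM with panobinostat and 58.1 and 57.4 CPM with DMSO (log2 fold change 1.15 ± 0.05, adjusted p = 6.8e-37), BMF differed by 0.77 and PMAIP1 (NOXA) by 0.68. The initiator caspase genes CASP10 and CASP8 differed by 1.57 and 1.19, while TNFRSF10B, a receptor for the ligand TRAIL, had 127 and 129 CPM with romidepsin, against 261 and 247 CPM with panobinostat and 6.86 and 9.09 CPM with DMSO (-0.98 ± 0.06).

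The mRNAs of the enzymes that the compounds inhibit differed little in class I. HDAC1 had 253 and 260.0 CPM with romidepsin, against 249 and 251 CPM with panobinostat and 215 and 212 CPM with DMSO, a log2 fold change of 0.04 (95% interval -0.04 to 0.12). HDAC3 and HDAC8 differed by -0.07 (95% interval -0.19 to 0.06) and 0.03 (95% interval -0.23 to 0.29). HDAC2 had 126 and 130.4 CPM with romidepsin, against 92.7 and 95.6 CPM with panobinostat and 187 and 187 CPM with DMSO (log2 fold change 0.45 ± 0.05, adjusted p = 8.2e-14). The class IIa enzymes were uneven, with HDAC4 at -0.18 ± 0.08 (adjusted p = 0.063), which did not pass, and HDAC5 at 0.22 ± 0.05. HDAC7 had 20.5 and 23.7 CPM with romidepsin, against 8.30 and 6.85 CPM with panobinostat and 146 and 144 CPM with DMSO (1.56 ± 0.09). HDAC9 had 26.2 and 26.9 CPM with romidepsin, against 5.91 and 7.13 CPM with panobinostat and 41.6 and 47.2 CPM with DMSO (2.01 ± 0.10). HDAC6, the tubulin deacetylase, had 137 and 135 CPM with romidepsin, against 156 and 156 CPM with panobinostat and 70.5 and 67.8 CPM with DMSO (-0.20 ± 0.05), and did not pass without romidepsin replicate 2, at an adjusted p of 0.095. Beside the counts that follow, 37.5% of all genes at 5 CPM or more were higher and 29.3% lower, and 23.4% and 18.3% of all tested. Of 29 corepressor subunits 19 were higher and 8 lower (median 0.26), 3 lower without romidepsin replicate 2 and 5 without panobinostat replicate 2. The largest were MTA3, of the NuRD complex, at 1.57, TBL1XR1 and TBL1X, of the NCoR complex, at 1.40 and 1.31, and CHD3, also of NuRD, at 1.19. Among acetyltransferases and acetyl-lysine readers, with 13 of 24 higher and 4 lower, the acetyltransferase KAT2B differed by 1.26 and the bromodomain protein BRD9 by -0.51. Of polycomb and DNA methylation genes 16 of 24 were higher, the polycomb subunit BMI1 (1.25) and the DNA methyltransferase DNMT3A (1.05) among them, and 4 lower. Of 17 polyadenylated and variant histone genes tested 13 were higher and 1 lower (median 0.58), 0 lower without romidepsin replicate 1 or panobinostat replicate 2. The linker histone gene H1-2 had 105 and 103 CPM with romidepsin, against 55.8 and 60.3 CPM with panobinostat and 11.6 and 9.32 CPM with DMSO, and H2AX differed by 0.04 (95% interval -0.05 to 0.13).

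Of the other gene groups with members near 0 in DMSO, the neuronal, metallothionein and matrix lists had medians below 0, and the cadherin list a median above 0. Members near 0 in DMSO could pass the filter on low counts only through treated groups in which they were higher. These counts and medians are therefore a description. Of the neuronal genes tested 7 had 0 counts in DMSO. Only 26 of 38 neuronal symbols passed the filter, of which 4 were higher and 13 lower (median -0.62), 8 lower without panobinostat replicate 1 or 2 and 7 with DESeq2. VGF, a secreted neuropeptide precursor, had 10.7 and 12.5 CPM with romidepsin, against 49.1 and 50.6 CPM with panobinostat and 0.169 and 0 CPM with DMSO. NES (nestin) had 13.7 and 13.2 CPM with romidepsin and 55.2 and 56.6 CPM with panobinostat, and L1CAM, a neural adhesion molecule, had 3.46 and 4.23 CPM with romidepsin and 10.6 and 12.3 CPM with panobinostat, and both had 0 counts in DMSO. SYP (synaptophysin) differed by -0.11 (95% interval -0.44 to 0.23). The neuronal tubulin TUBB3 had 38.6 and 37 CPM with romidepsin, against 99.9 and 102 CPM with panobinostat and 0.0847 and 0.224 CPM with DMSO (log2 fold change -1.41 ± 0.09, adjusted p = 3.1e-26), while TUBB, abundant in DMSO at 1685 and 1674 CPM, was higher with romidepsin (0.47). Of 8 metallothionein and zinc genes tested, of 14 symbols, 1 was higher, the zinc importer gene SLC39A10 (0.87), and 5 were lower (median -0.84). Without replicate 2 of either compound 2 were higher. MT2A, whose promoter is shown above, had 417 and 426 CPM with romidepsin, against 845 and 836 CPM with panobinostat and 3.47 and 3.47 CPM with DMSO (log2 fold change -1.0 ± 0.10, adjusted p = 4.3e-06), and MTF1, the zinc-sensing factor that binds its metal response elements, had 76.4 and 75.6 CPM with romidepsin, against 142 and 139.6 CPM with panobinostat and 42.3 and 41.6 CPM with DMSO. MRE letters stood in 4 of 6 member windows (66.7%) but also in 29.3% of all windows. Metallothionein genes are close copies, and how reads shared among them were counted is not given in the sources used here. Of 18 sodium and potassium channel genes tested 4 were higher and 5 lower; without panobinostat replicate 2, 2 were higher and 3 lower, and without romidepsin replicate 2, 3 were lower. SCN4A, a muscle sodium channel, had 8.86 and 11.1 CPM with romidepsin, against 27.7 and 27.9 CPM with panobinostat and 1.02 and 1.30 CPM with DMSO, and the potassium channel KCNH3 differed by -1.29. The cadherin list had 7 of 15 tested members higher and 1 lower (median log2 fold change 0.41), of 22 symbols, and 4 higher without panobinostat replicate 2. CDH2 (N-cadherin) differed by 1.48, and CDH15 (M-cadherin), the lower member, by -2.20. The matrix list had 3 of 15 tested members higher and 8 lower (median log2 fold change -0.32), of 22 symbols, and between 4 and 5 lower when any 1 library was left out. COL6A1 and COL6A2, subunits of collagen VI, differed by -0.96 and -0.97. Of the higher members, FN1 (fibronectin) had 273 and 277 CPM with romidepsin, against 132 and 141 CPM with panobinostat and 10.5 and 9.17 CPM with DMSO (1.01 ± 0.06). The actin-severing GSN, low in DMSO and not in either treated group, had 65.4 and 67.5 CPM with romidepsin, against 68.9 and 67.4 CPM with panobinostat and 1.99 and 1.60 CPM with DMSO, a difference of -0.04 (95% interval -0.21 to 0.14), and VIM, which encodes the intermediate filament vimentin, had 421 and 409 CPM with romidepsin, against 106 and 107 CPM with panobinostat and 635 and 653 CPM with DMSO (1.96 ± 0.04).

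Further groups are given by their counts. Beside them, 23.4% of all genes tested were higher and 18.3% lower. Among genes at 5 CPM or more it was 37.5% and 29.3%. Nuclear genes of oxidative phosphorylation had 25 of 41 members higher and 7 lower, 4 lower without panobinostat replicate 2, and NDUFC1, a complex I subunit, differed by 0.72. The mitochondrially encoded mRNAs had every interval within 1.5-fold, and MT-ATP8, a subunit of ATP synthase, differed by 0.01 (95% interval -0.12 to 0.15). The circadian list had 7 of 19 members higher and 4 lower, 2 lower without panobinostat replicate 2. Of these genes BHLHE40, a repressor of the clock, had 20.7 and 20.3 CPM with romidepsin, against 4.11 and 4.90 CPM with panobinostat and 46.2 and 49 CPM with DMSO (2.17 ± 0.12), whereas BMAL1 differed by 0.03 (95% interval -0.14 to 0.20). The KLF and SP list of transcription factors had 11 of 18 tested members higher and 3 lower (median log2 fold change 0.39); KLF13, a lymphoid Krüppel-like factor, differed by 1.17 and KLF16 by -0.90. Of 18 cancer-testis antigens tested 6 were higher and 2 lower, but at most 1 was lower when any library was left out. PRAME differed by 0.82 and MAGEA6, which has close copies, by -0.01 (95% interval -0.11 to 0.09). Of 9 drug transporter genes tested 4 were higher and 0 lower, 2 higher without romidepsin replicate 2. ABCA1, a cholesterol exporter, differed by 1.01 and ABCC1 (MRP1) by 0.49.

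The differences between the compounds changed with time. At 2 h 3624 genes were higher with romidepsin (17.3%) and 4154 lower (19.8%). At 5 h 5188 were higher (24.8%) and 5431 lower (25.9%). Over the genes at 5 CPM or more, the median absolute log2 difference was 0.28 at 2 h, 0.44 at 5 h and 0.33 at 20 h. The difference itself changed between 5 h and 20 h at an adjusted p under 0.05 in 8507 genes, upward in 5200 (24.8%) and downward in 3307 (15.8%). Of these, 967 were lower with romidepsin at 5 h and higher at 20 h (4.61%), and 562 the reverse (2.68%). In the immediate-early list 24 of 34 members changed upward, and its median was -1.20 at 5 h against 0.47 at 20 h. For CDK inhibitors and p53 targets 20 of 27 changed upward (median -0.68 at 5 h), and in ribosome biogenesis 34 of 42 changed downward (median 0.13 at 5 h).

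**Figure D4:**
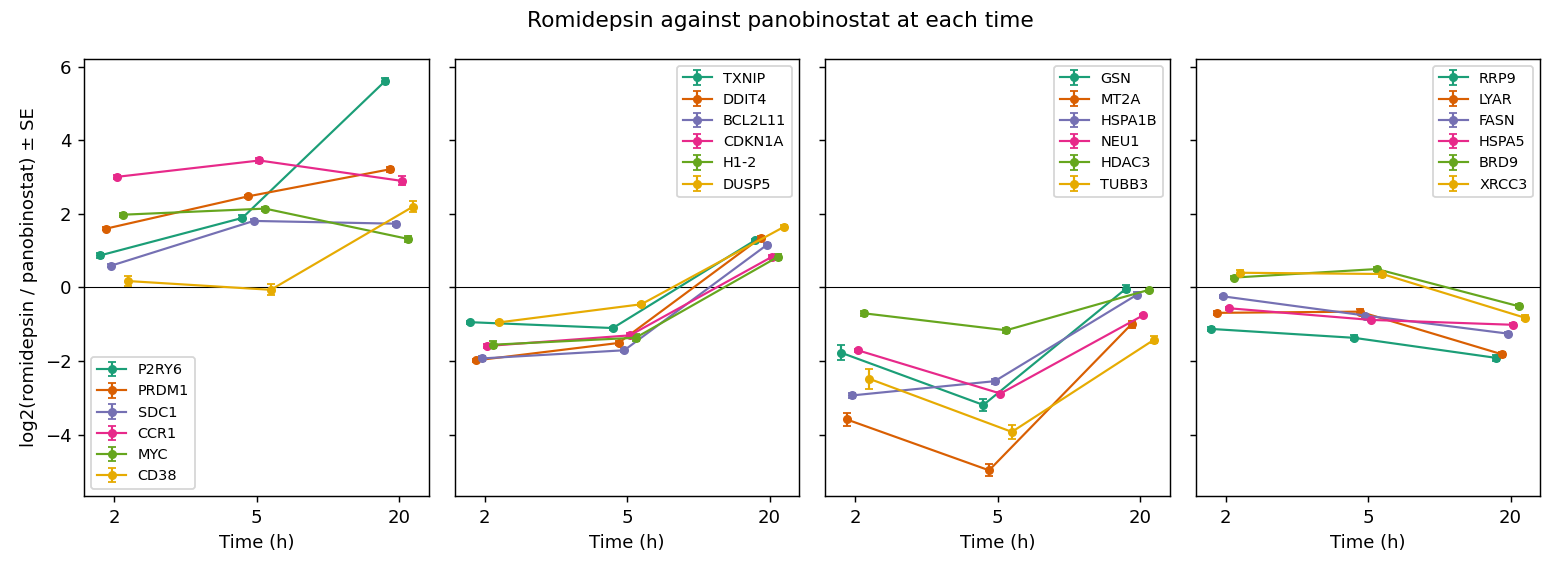
Log2 fold change of romidepsin over panobinostat (y axis, ± SE) at 2, 5 and 20 h (x axis) for 24 genes in 4 panels. The first panel shows plasma cell and receptor genes, the second genes that crossed 0 between 5 h and 20 h, the third genes whose early difference shrank, and the fourth genes that were lower with romidepsin at 20 h.

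Genes whose direction turned included several classical targets. TXNIP had 186 and 188 CPM with romidepsin, against 396 and 406 CPM with panobinostat at 5 h, a log2 fold change of -1.10, and its difference changed by 2.39 ± 0.06 (adjusted p = 8.5e-61). BCL2L11 had 44.2 and 43.4 CPM with romidepsin, against 143 and 143 CPM with panobinostat at 5 h, and its difference changed by 2.86 ± 0.08 (adjusted p = 1.6e-54). CDKN1A had 48.5 and 50.5 CPM with romidepsin, against 121 and 123 CPM with panobinostat at 5 h, with a change of 2.14 ± 0.07 (adjusted p = 2.9e-48). For these 3 genes panobinostat was above romidepsin at 5 h and below it at 20 h. A further set had a large early difference that shrank to within 1.5-fold. GSN had 1.93 and 2.41 CPM with romidepsin, against 19 and 20.4 CPM with panobinostat at 5 h, and its log2 fold change was -3.19 at 5 h and -0.04 at 20 h. HDAC3 had a log2 fold change of -1.16 at 5 h and -0.07 at 20 h. HSPA1B, an inducible HSP70 gene nearly identical to HSPA1A, differed by -2.54 at 5 h and -0.19 at 20 h, where it did not pass without romidepsin replicate 1 (adjusted p = 0.19), without romidepsin replicate 2 (0.074) or without panobinostat replicate 2 (0.23). MT2A had 5.36 and 5.05 CPM with romidepsin, against 180.1 and 148 CPM with panobinostat at 5 h, a log2 fold change of -4.97, further from 0 than at 20 h.

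In the plasma cell genes romidepsin was already above panobinostat early. PRDM1 differed by 1.59 at 2 h, 2.47 at 5 h and 3.21 at 20 h. CCR1 differed by 3.0, 3.45 and 2.89 at the same times, and MYC by 1.98, 2.14 and 1.32. P2RY6 differed by 1.89 at 5 h, and the change to 20 h was 3.71 ± 0.12 (adjusted p = 7.2e-50). MACROD2 differed by 0.22 at 5 h, and the change was 3.77 ± 0.08 (adjusted p = 2e-66). CD38 differed by -0.06 at 5 h, which did not pass the test. The largest upward changes among well-expressed genes were in the unnamed ENSG00000289298, ENSG00000291156 and ENSG00000273443, at 8.97, 8.93 and 8.58, fitted values that are no bounds, since all 3 had 0 counts with romidepsin at 5 h. The largest downward changes were in ENSG00000310059, ENSG00000245025 and AP5S1, at -3.28, -2.84 and -2.63.

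Gene structure went with the difference at 20 h. Among 9220 protein-coding genes at 5 CPM or more in DMSO, the median log2 fold change was 0.03 for spans up to 5 kb and 0.00 for 10 to 20 kb. It was 0.10 for 50 to 100 kb, 0.26 for 100 to 200 kb and 0.38 above 200 kb. Above 200 kb 63.2% of 652 genes were higher with romidepsin and 9.97% lower. Of 15 genes above 1000 kb 13 were higher and 0 lower, MACROD2 among them. The axon guidance receptor gene DCC had a mean of 25.2 CPM with romidepsin, 5.11 with panobinostat and 81.8 with DMSO, and RUNX1, a haematopoietic factor, 139.7, 49.0 and 61.9 in the same order. Against DMSO the median of genes above 200 kb was -0.04 with romidepsin and -0.42 with panobinostat.

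GC content went with the difference too. The quintile of these genes with the lowest transcript GC (31.3% to 40.6%) had a median of 0.21, with 52.8% higher and 13.9% lower, and the quintile with the highest (57.7% to 74.1%) a median of -0.11, with 27.6% higher and 43.1% lower. In the lowest quintile the median was 0.39 for 493 genes above 100 kb and 0.13 for 274 genes up to 20 kb, and in the highest quintile it was -0.03 for 96 genes and -0.10 for 1115 genes. Between replicates 1 and 2 of the same group the median log2 ratio ran over the quintiles from -0.01 to 0.01 with romidepsin, from -0.05 to -0.02 with panobinostat and from -0.01 to 0.01 with DMSO. The part of GC content in the differences of single genes was not tested. By chromosome the median ran from -0.19 on chromosome 19 and -0.16 on chromosome 16 to 0.25 on chromosome 6 and 0.28 on the X. Of 3352 long noncoding RNA genes tested 317 were higher (9.46%) and 326 lower (9.73%), and of 13600 protein-coding genes 31.3% were higher and 23.3% lower.

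**Figure D5:**
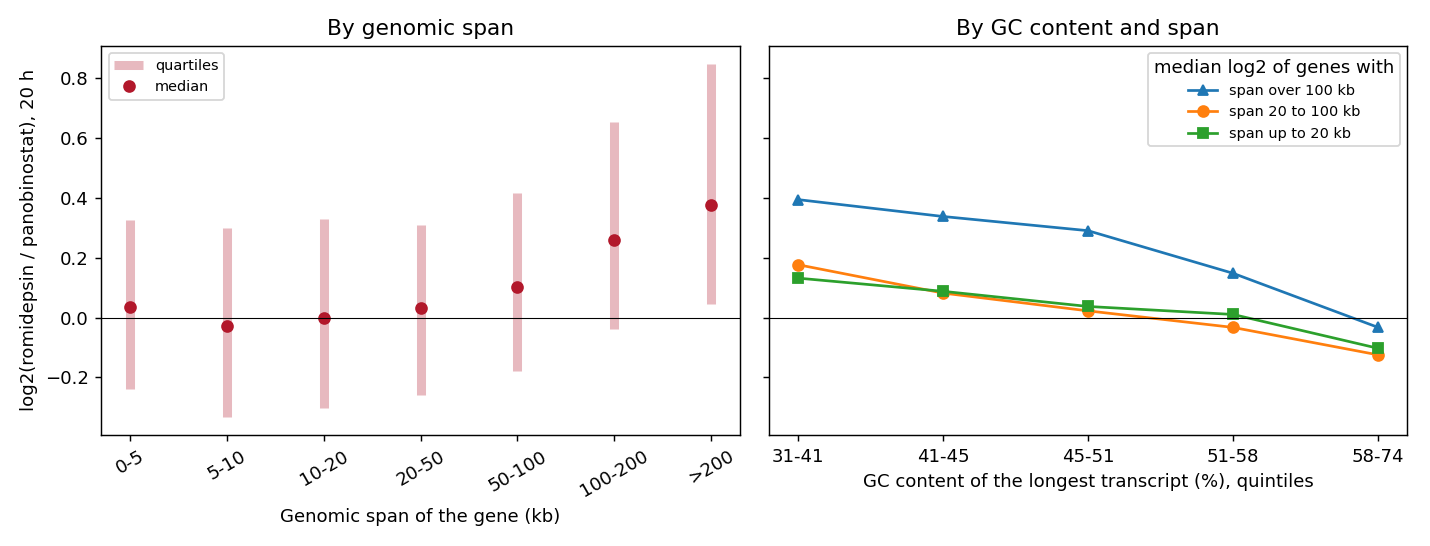
Log2 fold change of romidepsin over panobinostat at 20 h (y axis) of protein-coding genes at 5 CPM or more in DMSO. The left panel gives medians (points) and quartiles (bars) by genomic span in kb, rising to 0.38 above 200 kb; the right panel gives medians by quintiles of transcript GC content for genes above 100 kb (triangles), 20 to 100 kb (circles) and up to 20 kb (squares).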

How the data were processed

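Poly(A) RNA of OPM2 cells was sequenced strand-specifically as paired 100-base reads, per the labels' protocols, and the authors deposited 1 table of raw counts per gene, for which the submitters' processing notes name HISAT2, SAMtools, featureCounts and GRCh38. Not given in the sources used here are tool versions, annotation release, strand setting and the handling of reads shared between genes, so near-identical copies (HLA-DRB, HSPA1A and HSPA1B, histone, metallothionein, MAGE and SPANX genes) and antisense partners are uncertain. Of 78932 identifiers, 42179 had a symbol and 57302 were found in GENCODE 29, which gave coordinates and gene types. 

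All 20 libraries (17264640 to 29088868 counts) entered 1 fit in edgeR 4.0.16 (R 4.3.3, limma 3.58.1) of the 10 groups, with TMM scaling, filterByExpr at a minimum count of 10, robust quasi-likelihood F tests and Benjamini-Hochberg adjustment over 20957 genes. Standard errors are the absolute log2 fold change over the root of F. Printed CPM were computed here from the deposited counts and TMM-scaled totals, marker sums from unscaled totals. The method was also run on simulated counts with the same dispersion for every gene, a setting simpler than these data. Its outcome is not reported here. The variance between the 2 libraries of a group was 2.35 times that of counting for romidepsin and 2.91 times for panobinostat. With 2 libraries per group, the spread comes mainly from the shared fit.

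Named genes were the 12 protein-coding genes with the largest difference of each sign at 5 CPM or more and without overlap, up to 4 of each of 46 lists by size plus the member nearest 0, a panel of 28 genes, and 3 of each sign for long noncoding RNAs and for the change between 5 h and 20 h; some are not reported here. List members named as the only called ones in a direction (DERL3, BHLHA15, PAX5, CD40, CCND3, E2F1, CDC25A, IL32, UBTF, WDR12, NOP10 and WDR75), and DCC and RUNX1, were added after their values were seen. HDAC4 and HDAC5, and the pro-apoptotic BID, HRK, BOK, BNIP3 and BCL2L14, were also named outside these rules. The members and lists were chosen with earlier results of these data known. Alternatives were size factors of the DESeq2 type, library size alone, no filter, a minimum of 30, DESeq2 1.42.0, a replicate block, the contrast's libraries alone, and each library left out. Promoters, from RefSeq, were searched for the 4 motif groups on both strands.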

Additional observations from a re-analysis of the deposited data

Results flagged for a closer look

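The difference between romidepsin and panobinostat at 20 h was not that at 5 h in 8507 genes, by a test of the change in the difference (edgeR's quasi-likelihood test, adjusted p under 0.05; no libraries are shared between the times). Among the 271 named genes it turned from lower with romidepsin at 5 h to higher at 20 h in 23 genes. Of all 20957 genes tested 967 (4.61%) did so. Some named genes were picked by the size of this change or of the 20 h difference, so the 23 are a description. On the log2 scale the change was 2.86 for DDIT4, 2.39 for TXNIP and 2.84 for ARRDC4. It was 2.86 for BCL2L11, 1.36 for BMF, 1.30 for PMAIP1, 1.57 for BIRC3 and 0.74 for MCL1, so that cell death genes of both directions turned. Histone and p53-target genes turned as well, with 2.96 for H1-4, 2.20 for H1-2 and 2.14 for CDKN1A. The change was 2.68 for OAS1, 2.10 for DUSP5, 1.80 for BACH2, 2.02 for NR1D2, 1.52 for ABCA1 and 2.10 for FN1. Smaller turns were 0.67 for ABCC1, 0.74 for CHORDC1, 0.71 for ITGB1 and 0.72 for TIMP2. The changes fitted for ENSG00000289298 (8.97) and SPANXN3 (8.25) are no bounds, because both had 0 counts with romidepsin at 5 h. In the other direction, from higher to lower with romidepsin, the change was -1.01 for BRD9, -0.91 for RFC2, -1.19 for XRCC3, -0.36 for HDAC6 and -2.84 for ENSG00000245025. The same concentration was used at each time, and how each compound's effect on its enzymes ran over time was not measured in these libraries.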

How the results depend on the processing

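The count of genes higher with romidepsin at 20 h (4907) was 4288 with library-size scaling, 4400 with DESeq2 and 5076 with the contrast's libraries alone. The count lower (3835) was 3309 with DESeq2 and 4823 with the contrast's libraries alone, and leaving out 1 library gave 4164 to 4534 higher and 2766 to 3135 lower. The share of calls that were higher was 56.1%, against 48.5% with library-size scaling and 51.3% with the contrast's libraries alone. Genes at least 2-fold lower (900) numbered 635 with DESeq2, 1281 with the contrast's libraries alone and 621 to 746 with 1 library left out. The replicate block gave 4868 higher and 3805 lower, and for the change between 5 h and 20 h 5157 upward and 3275 downward. Same-numbered libraries did not deviate together, with a correlation of -0.01 between romidepsin and panobinostat at 20 h. Of 271 named genes 250 kept their call in every alternative, and of 2981 gene values 40 lost a call, 10 gained one and 0 reversed. Genes near 0 in DMSO passed least often: of 6349 at 0.5 CPM or less, 242 passed as higher and 627 as lower. The part of sequencing depth in this was not tested. With 2 libraries per group, equal concentrations and no DMSO harvest time, potency, timing and compound cannot be told apart.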
